A study of Rattus norvegicus with 18 samples.

Results

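The proteasome genes were described here in rat hippocampus after exposure to alcohol before birth. They were taken as every gene whose platform symbol starts with Psma, Psmb, Psmc, Psmd, Psme, Psmf or Psmg. Where a gene had several probe sets, that of the highest mean stands for it. This gave 43 of the 10412 genes named on the array, of which 41 were listed as parts or helpers of the proteasome. The other 2, Psmc3ip and Psme3ip1, were taken in by the prefix and given none of the roles below. They remain in the counts of members. By role, 7 genes encode the alpha ring of the core, 6 the beta ring, 3 the interferon-inducible beta subunits, 5 the ATPases of the cap, 9 its other subunits, 3 activators, 1 an inhibitor and 7 assembly chaperones. Psmb6 and Psme3 had only probe sets that name several genes and are not members.

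Total RNA was hybridised to 18 Affymetrix arrays. The samples fell into 6 groups, each a diet label with or without a training procedure labelled CFC, which the labels do not spell out. The alcohol diet label had 4 arrays of trained and 4 of naive rats. The isocaloric label had 4 and 2, and the control label 2 and 2. Exposure was before birth, so a diet label names an exposure group and not the intake of the sampled rats. The isocaloric diet, by its name matched in calories, is not described further in the labels. Strain, sex, age, litter and the time of tissue collection are not given in the sources used here. Nothing in the labels ties a replicate to an animal of its own, so p-values measure the spread between these samples. In a whole-tissue sample, fewer cells of a type and less RNA per cell cannot be told apart.

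The proteasome is the barrel-shaped protease that degrades proteins tagged with ubiquitin. Its core is built of stacked alpha rings, which gate the entry, and beta rings, some of whose subunits cut the substrate. A cap of ATPases and other subunits binds, unfolds and feeds in the tagged protein. Interferon can replace the catalytic beta subunits by inducible ones, the immunoproteasome, and neurons use proteasome activity in synaptic plasticity and memory formation.

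Levels are log2(intensity + 6.06), so a difference of 1 is a doubling on that scale, and levels are compared between arrays and not between genes. A difference passed the test at a Benjamini-Hochberg adjusted p below 0.05 in limma, adjusted over all 9520 probe sets tested. Of the 43 genes, 42 were tested. Psmb9, an inducible beta subunit, lay under the filter on low values with a mean level of 5.26.

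7 members passed the test in an averaged diet comparison, and the 120 bases upstream of their RefSeq transcription starts are shown here, because the search for sites of known regulators covers these stretches. Each line gives the coordinates in GRCr8 and the strand, and reads in the direction of the gene. Capitals mark a match to a searched motif on either strand.
Psma1 (chr1:177887858-177887977, minus strand): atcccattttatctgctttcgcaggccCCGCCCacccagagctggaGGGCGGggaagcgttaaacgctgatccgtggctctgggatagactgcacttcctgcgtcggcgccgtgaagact
Psma4 (chr8:64236400-64236519, plus strand): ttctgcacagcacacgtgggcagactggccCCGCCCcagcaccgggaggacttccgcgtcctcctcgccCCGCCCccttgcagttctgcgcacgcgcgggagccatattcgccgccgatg
Psmb4 (chr2:185134562-185134681, minus strand): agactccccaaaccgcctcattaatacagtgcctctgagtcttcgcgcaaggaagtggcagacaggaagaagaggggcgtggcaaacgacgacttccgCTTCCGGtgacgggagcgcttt
Psmc2 (chr4:14162391-14162510, minus strand): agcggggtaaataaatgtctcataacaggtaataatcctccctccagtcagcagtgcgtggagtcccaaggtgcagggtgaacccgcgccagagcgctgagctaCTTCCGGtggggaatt
Psmd11 (chr10:65932223-65932342, plus strand): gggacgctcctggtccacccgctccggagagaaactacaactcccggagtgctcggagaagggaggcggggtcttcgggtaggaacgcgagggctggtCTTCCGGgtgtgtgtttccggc
Psmb5 (chr15:32047380-32047499, minus strand): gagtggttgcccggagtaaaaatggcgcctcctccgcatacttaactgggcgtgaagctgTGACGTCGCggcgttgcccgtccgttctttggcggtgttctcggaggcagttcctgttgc
Psmb10 (chr19:50743293-50743412, minus strand): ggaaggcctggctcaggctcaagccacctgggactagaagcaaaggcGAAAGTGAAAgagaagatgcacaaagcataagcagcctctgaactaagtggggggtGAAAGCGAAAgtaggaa

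5 motifs were searched on both strands of a 300-base window, 250 bases before to 50 after the start, which RefSeq's table held for 41 of the 43 members. The core of the ETS family, CCGGAAG, was in 34.1% of the members' windows, 14 of 41, against 9.22% of all windows in the table and 18.9% of those of the genes tested. In the stretches above it marks Psmb4, Psmc2 and Psmd11. The GC box, GGGCGG, bound by the Sp1 family, was in 68.3% of the members' windows, 34.9% of all and 66.5% of those of the genes tested, and Psma1 and Psma4 carry it. A CCAAT box, CCAAT, was in 53.7%, 37.7% and 38.0%. The antioxidant response core, TGACNNNGC, which Nfe2l1 and Nfe2l2 can bind, was in 17.1%, 12.2% and 14.9%, and Psmb5 carries it. An interferon response core, GAAA followed after any 2 bases by GAAA, was in 17.1% of the members' windows, 7 of 41, against 3.77% of all and 2.53% of those of the genes tested. These 7 were Psma4, Psmb3, Psmb8, Psmb10, Psmd7, Psme2 and Psmg4, and Psmb10 carries it at 2 places in the stretch above. Matches of different motifs overlapped in 2 of the 41 windows, and a match describes letters and no binding.

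Among the arrays, control naive replicate 2 stood apart, for the proteasome genes and for all probe sets. It held the highest level of all 18 arrays for 16 of the 42 members tested, 38.1%, where the other 17 arrays each held 0% to 9.52%. Of all 9520 probe sets tested it was highest for 17.2%, against 3.03% to 8.89% on the other arrays, and lowest for 20.5%, against 2.10% to 11.1%. The median member lay 0.22 above its median on the other arrays, and the median probe set 0.04 below (-0.04). Of the 13 core genes 8 were highest there, and of the 14 cap genes 6. Psmb4, a structural subunit of the beta ring, was at 10.69 on this array and between 9.66 and 9.997 on the other 17. Psmg4, a chaperone of alpha ring assembly, stood 0.63 above its median elsewhere, Psmc2, a cap ATPase, 0.62 above, Psma4, of the alpha ring, 0.56 above, and Psmb1, of the beta ring, 0.55 above. Psme4, an alternative activator, and Psmd11, a scaffold subunit of the cap, stood 0.48 and 0.44 below it (-0.48 and -0.44). The other control naive array did not share this, with a median member 0.04 above its median elsewhere. The differences from the control diet that passed are therefore also given without this array. Leaving it out leaves control naive replicate 1 alone in its group, with the spread of the other groups.

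**Figure D1:**
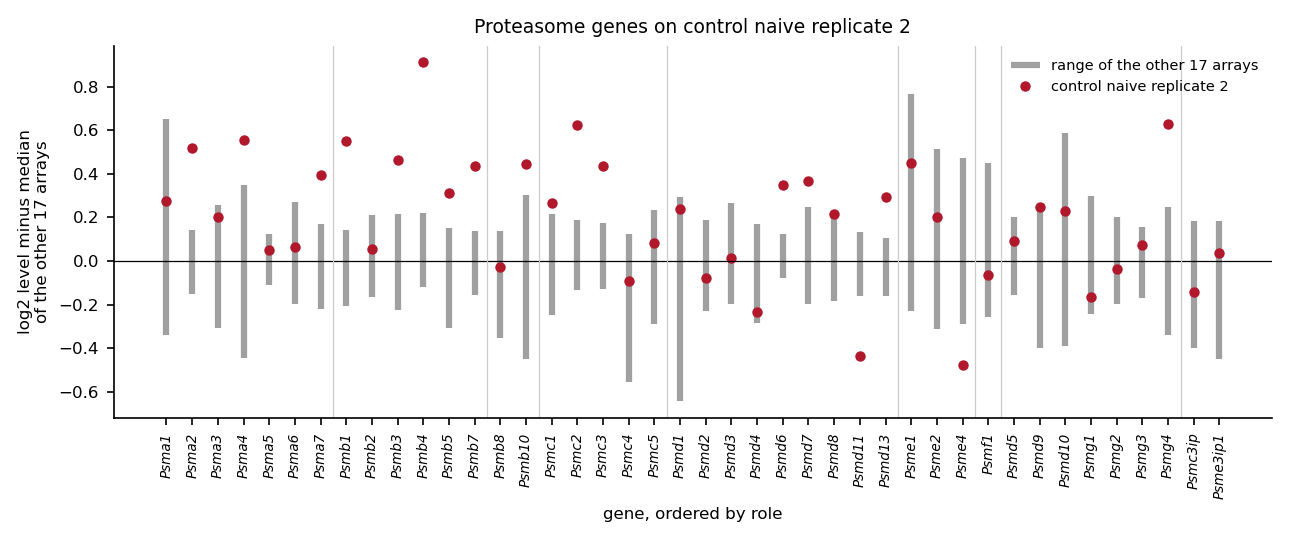
Level of each of the 42 tested proteasome genes on control naive replicate 2 (points), as the log2 difference from the gene's median on the other 17 arrays, with the range of those 17 arrays as a bar. Points above their bar, such as Psmb4, mark the 16 genes that were highest on this array.

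Total signal ranged from 2.92e+06 to 3.13e+06 per array, log2 levels of arrays of a group correlated at 0.965 to 0.982 over probe sets, and 0 pairs were identical. 5 neuronal and 4 principal cell markers of the hippocampus were measured, and all passed the filter. 4 arrays, alcohol trained replicate 4, alcohol naive replicate 2, isocaloric trained replicate 3 and control trained replicate 1, were high in Ttr, the transthyretin made by choroid plexus (12.5 to 12.8 against 6.10 to 9.57). Control naive replicate 1 and control trained replicate 2 differed from the other 16 arrays in the number of digits of their values. The log2 ratio of 3' to 5' actin probe sets, a measure of RNA integrity, was 0.54 to 0.73 on control arrays, 0.19 to 0.67 on alcohol arrays and 0.32 to 0.51 on isocaloric arrays.

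The comparison of alcohol with the isocaloric diet asks for the effect of alcohol beside a diet of matched calories. 1 of 42 members passed, Psma1, lower by 0.36 (SE 0.0825, adjusted p = 0.0263) as the mean of trained and naive samples, a level 22.1% lower. Of all probe sets 3.06% passed, and 1.59% passed and were lower. The other 41 did not pass, and 31 of 42 differences were positive, with a median of 0.06 against -0.02 for all probe sets, of which 45.5% were positive. At an unadjusted p under 0.05 there were 12 members, 10 higher and 2 lower with alcohol, or 28.6% of the members, beside 21.7% of all probe sets. Without Psmc3ip and Psme3ip1 there were 11 of 40, or 27.5%, 10 higher and 1 lower, and the median difference was 0.09. Of 43 cell type markers tested 2 passed, Hpca of the principal cells (0.53, adjusted p = 0.0176) and Aldoc of the astrocytes (0.36, 0.0268), both higher with alcohol. The microglial C1qa, C1qb and C1qc were at 0.32, 0.37 and 0.35 and did not pass. Over the 9 microglial markers tested the median was 0.02. The part of these cells in the proteasome differences was not tested.

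Psma1 is a subunit of the alpha ring. On the alcohol trained arrays it was at 8.48, 8.48, 8.37 and 8.65, and on the alcohol naive arrays at 8.31, 8.23, 8.15 and 8.38. On the isocaloric trained arrays it was at 8.44, 8.87, 8.51 and 8.58, and on the isocaloric naive arrays at 8.83 and 8.93. The naive groups did not overlap, and the trained groups did. In naive samples alone the difference was -0.62 (SE 0.128, adjusted p = 0.0598), and the difference between the trained and the naive effect was 0.51 (SE 0.165, adjusted p = 0.9996 in limma). The log2 ratio of 3' to 5' Gapdh probe sets, a further measure of RNA integrity, was 0.09 to 0.48 on alcohol arrays, with a median of 0.23, and 0.06 to 0.18 on isocaloric arrays, with a median of 0.14. With it as a covariate Psma1 was at -0.34 (SE 0.103, adjusted p = 0.152) and did not pass, and the calls over all probe sets fell from 291 to 25. The averaged difference kept its direction in all 33 alternatives, from -0.39 to -0.29, and lost its call in 7, among them those that left out alcohol naive replicate 3, alcohol trained replicate 3 or either isocaloric naive array.

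Within the core, the other alpha ring genes ranged from -0.15 for Psma3 to 0.20 for Psma6 and the 6 beta ring genes from 0.00 for Psmb2 to 0.19 for Psmb5. None of these passed. Psmb5, the chymotrypsin-like catalytic subunit, had an adjusted p of 0.0562 at 0.19 (SE 0.0526), Psma6 0.0837 and Psma7 0.0962 at 0.19. All 6 beta ring and all 5 cap ATPase differences were positive, with medians of 0.14 and 0.13. The largest positive differences were those of Psmb10 (0.26, adjusted p = 0.125), the activator subunit Psme2 (0.23, 0.111) and Psma6 (0.20). Below Psma1, the most negative were Psmc3ip, a helper of meiotic recombination and no proteasome part (-0.25, 0.150), and the chaperone Psmd10 (-0.17, 0.295).
Centring each array on the median of its probe sets changed which members passed: 4 were then higher with alcohol, Psmb5 (0.26), Psma6 (0.28), Psma7 (0.26) and Psme2 (0.31), and Psma1 no longer passed. The median of all probe sets moved from -0.02 to 0.06 under this centring. The split over all probe sets moved from 140 higher and 151 lower to 565 and 73.

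**Figure D2:**
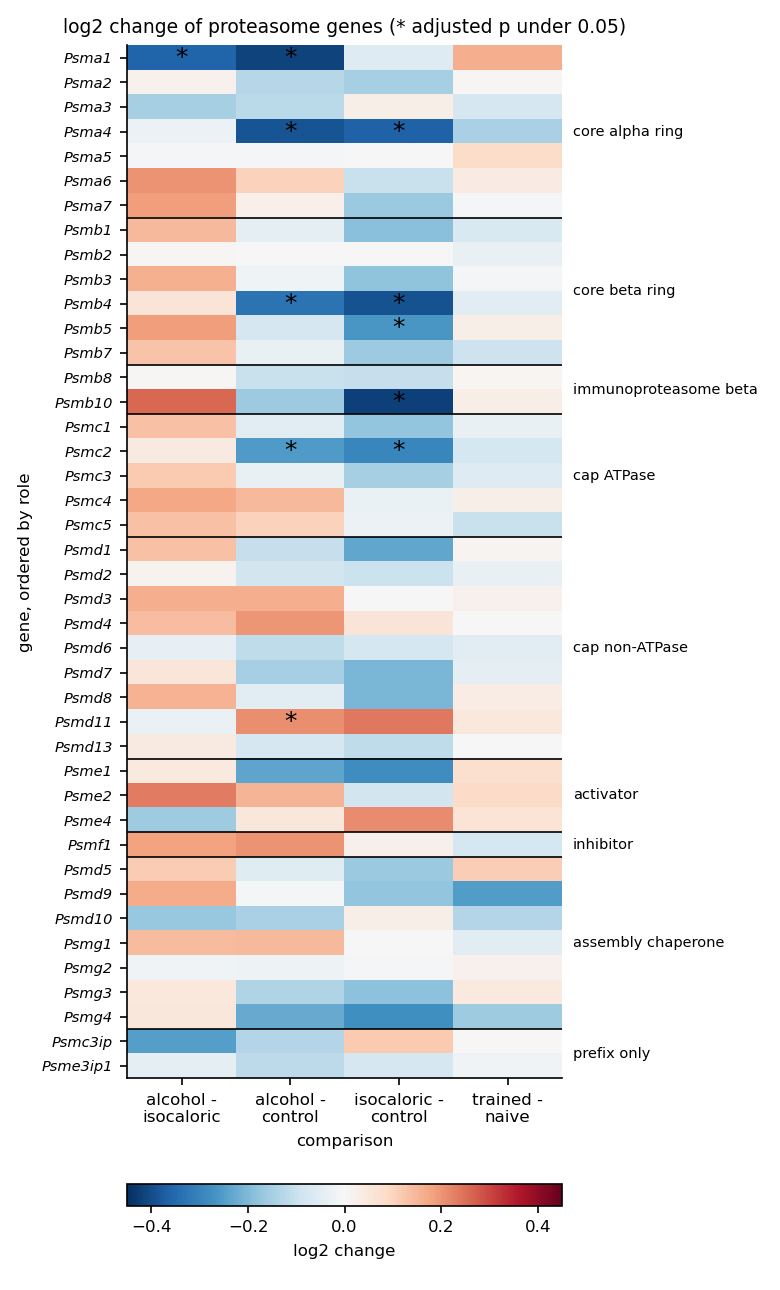
Log2 difference (colour) of the 42 tested proteasome genes, grouped by role, in the 3 averaged diet comparisons and the averaged training comparison, with a star where the adjusted p is under 0.05. Stars stand at Psma1 for alcohol against isocaloric, at 5 genes for alcohol against control and at 5 genes for isocaloric against control, and the training column has none.

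Against the control diet, 5 members passed with alcohol, 4 lower and 1 higher. Psma1 was lower by 0.42 (SE 0.0904, adjusted p = 0.0047), Psma4 by 0.39 (SE 0.0873, 0.0058), Psmb4 by 0.33 (SE 0.102, 0.029) and Psmc2 by 0.25 (SE 0.079, 0.0317). Psmd11 was higher by 0.21 (SE 0.0686, 0.0393), and its second probe set gave 0.22 (0.0305). In percent these differences were 25.1, 23.7, 20.6 and 16.1 lower and 15.6 higher. The members called were 11.9% of those tested, against 19.9% of all probe sets, and those lower 9.52% against 8.61%. At an unadjusted p under 0.05 there were 7 members, 16.7%, against 33.6% of all probe sets. Over the 42 members 12 differences were positive and 30 negative, with a median of -0.05 against -0.00 for all probe sets.

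With the isocaloric diet against control, 5 members passed and all 5 were lower. They were Psmb10 by 0.42 (SE 0.112, adjusted p = 0.0313), Psmb4 by 0.39 (SE 0.11, 0.0391), Psma4 by 0.36 (SE 0.0943, 0.0284), Psmc2 by 0.29 (SE 0.0853, 0.0454) and Psmb5 by 0.26 (SE 0.0622, 0.0192). The share called was 11.9%, against 7.05% of all probe sets, and against 2.8% for those that passed and were lower. At an unadjusted p under 0.05 there were 15 members, 35.7%, against 25.1% of all probe sets. Of the 42 differences 34 were negative, the median was -0.11, and that of all probe sets was 0.02. All 6 beta ring genes and all 5 cap ATPases had negative differences, with medians of -0.18 and -0.15. Psmd11 went the other way at 0.24 and did not pass (adjusted p = 0.0572). Both diets were set against the same 4 control arrays, so that the appearance of Psma4, Psmb4 and Psmc2 in both comparisons is no separate evidence. The isocaloric arrays likewise enter both this comparison and that of alcohol with isocaloric. The opposite signs of the beta ring and cap ATPase genes there are thus no separate evidence. On isocaloric naive replicates 1 and 2 the median member lay at -0.10 and -0.09 from its median on the other arrays, the lowest of all arrays.

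Psma4 is an alpha ring subunit. It was at 8.03, 7.98, 8.08 and 7.64 in alcohol trained, 8.13, 7.996, 8.13 and 8.32 in alcohol naive, 8.09, 7.91, 7.94 and 8.07 in isocaloric trained and 8.10 and 8.15 in isocaloric naive samples. The control trained arrays gave 8.32 and 8.44 and the control naive arrays 8.31 and 8.64. Every isocaloric array lay below all 4 control arrays, and 1 alcohol naive array lay just above the lowest of them. Without control naive replicate 2, the difference was -0.31 for alcohol (adjusted p = 0.0587) and -0.28 for the isocaloric diet (0.197). For alcohol this was the 1 alternative of 33 in which the call was lost.

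For Psma1 the control trained arrays were at 9.002 and 9.14 and the control naive arrays at 8.29 and 8.76. The lower of the naive arrays lay within the alcohol range, and both trained arrays lay above every alcohol and isocaloric array. Without control naive replicate 2 the alcohol difference was -0.30 (adjusted p = 0.0515).

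Psmb4 was at 9.84, 9.77, 9.81 and 9.80 in alcohol trained, 9.73, 9.82, 9.69 and 9.74 in alcohol naive, 9.78, 9.69, 9.78 and 9.72 in isocaloric trained and 9.73 and 9.66 in isocaloric naive samples. The control trained arrays were at 9.95 and 9.997, and the control naive arrays at 9.79 and 10.69. Control naive replicate 2 lay far above the rest, and without it the differences shrank to -0.11 (adjusted p = 0.216) for alcohol and -0.17 (0.162) for the isocaloric diet.

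Psmc2 is one of the ATPases that unfold the substrate. It was at 9.40, 9.53, 9.48 and 9.49 in alcohol trained, 9.42, 9.56, 9.55 and 9.57 in alcohol naive, 9.51, 9.47, 9.37 and 9.43 in isocaloric trained and 9.50 and 9.45 in isocaloric naive samples. The control trained arrays were at 9.66 and 9.69 and the control naive arrays at 9.54 and 10.13. As for Psmb4, control naive replicate 2 was the array that stood out, and the differences without it were -0.11 (adjusted p = 0.283) and -0.14 (0.284).

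Psmd11, of the cap, was at 8.82, 8.87, 8.77 and 8.77 in alcohol trained, 8.81, 8.62, 8.73 and 8.85 in alcohol naive, 8.90, 8.71, 8.83 and 8.67 in isocaloric trained and 8.79 and 8.91 in isocaloric naive samples. The control trained arrays were at 8.69 and 8.61 and the control naive arrays at 8.65 and 8.34, the lowest being control naive replicate 2. The ranges of alcohol and control overlapped, and without that array the difference was 0.13 (adjusted p = 0.265).

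**Figure D3:**
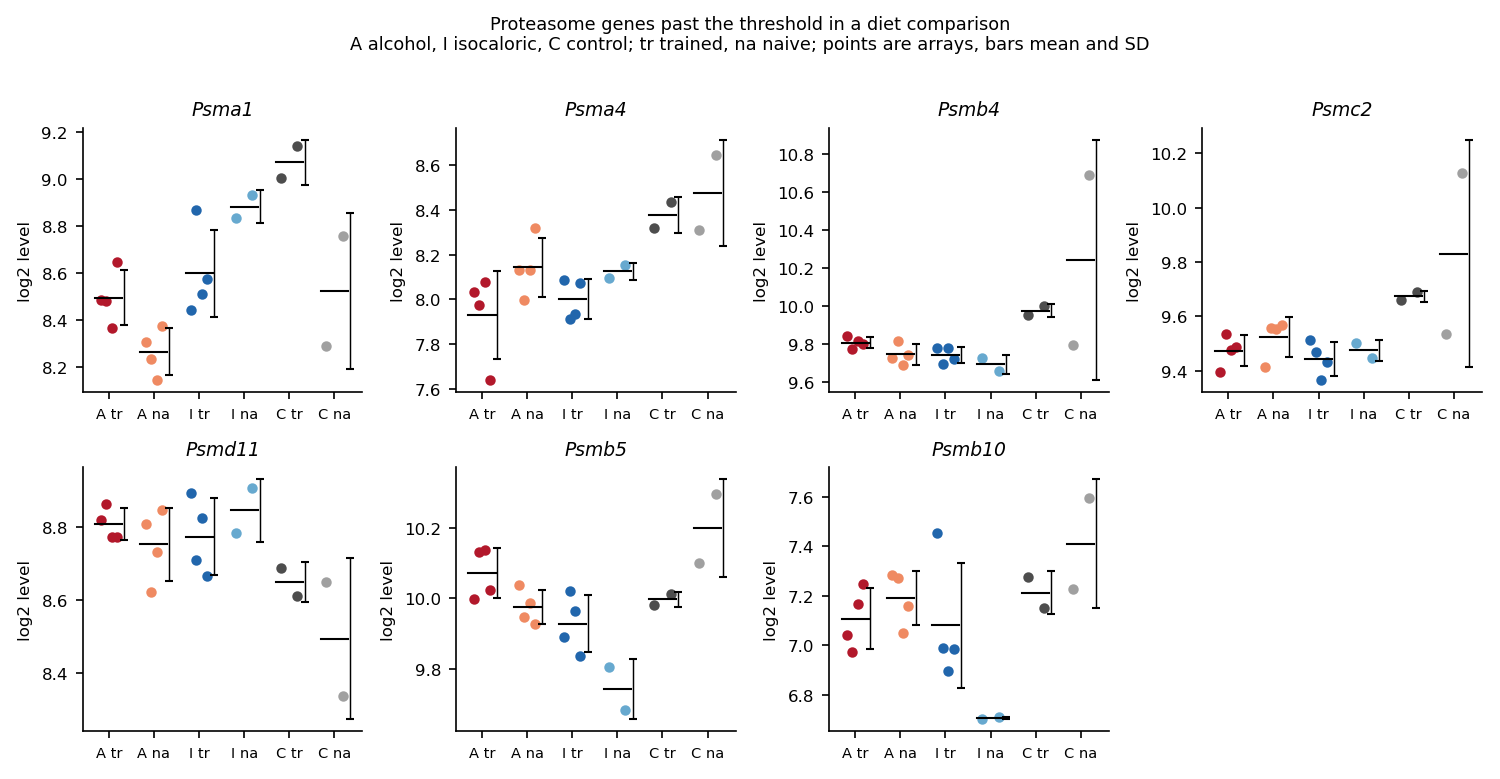
Log2 level on each array (points) of the 7 proteasome genes that passed a diet comparison, by the 6 groups, with the group mean as a line and the SD as a bar (n = 4 or 2). For Psmb4 and Psmc2 the higher control naive array, replicate 2, lies above all other arrays, at 10.69 and 10.13.

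The count of members against control changed when single control arrays were left out. Control naive replicate 2 was singled out partly by the members' own levels, so leaving it out shrinks many of their differences by construction. Every fit that left out a control array kept 1 array in that group, with the spread of the others. Without control naive replicate 2, 0 members passed in limma with alcohol and 0 with the isocaloric diet, and the calls over all probe sets fell to 6.09% and 1.17%. At an unadjusted p under 0.05 there were then 5 members (11.9%) and 7 (16.7%), beside 22.4% and 13.6% of all probe sets. Without control naive replicate 1, which leaves replicate 2 alone in its group and gives it the spread of the others, the counts were 12 (28.6% of the members) and 18 (42.9%), beside 31.8% and 24.8% of all probe sets. Leaving out either control trained array lowered both counts from those of all arrays. The share of all probe sets that passed there is not given, so this cannot be read as particular to the members. For alcohol against isocaloric the count ran from 0 to 3. It was at its highest without either control naive array, and the share of all probe sets that passed rose there too. These arrays enter that comparison only through the shared spread.

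**Figure D4:**
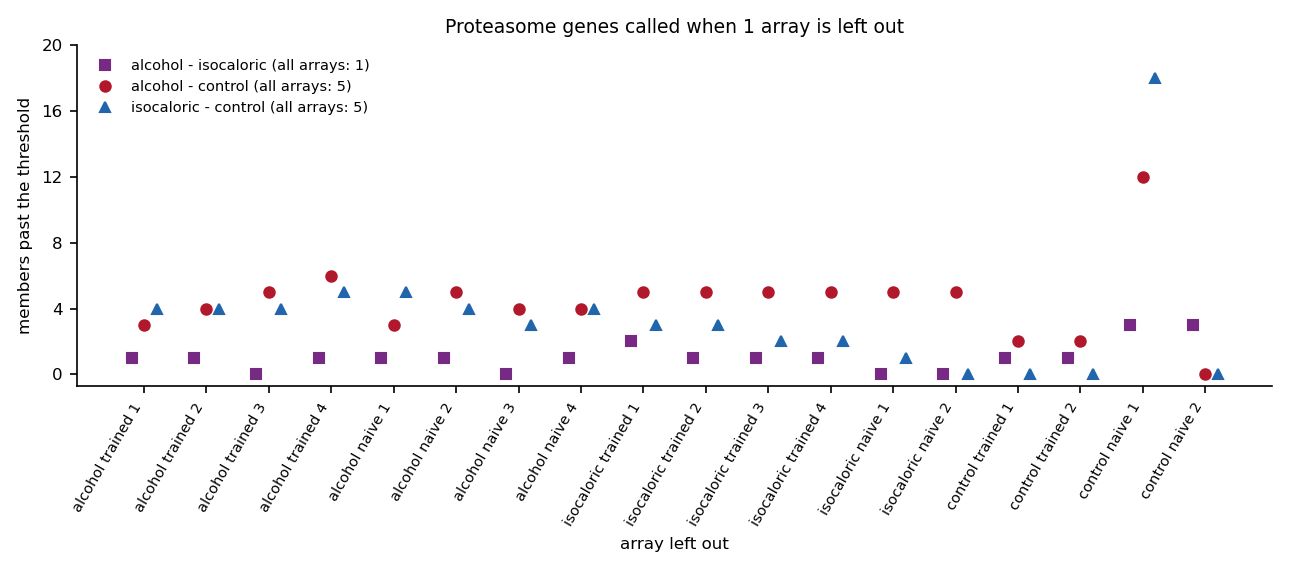
Number of proteasome genes past the threshold (vertical axis) in the 3 averaged diet comparisons when 1 of the 18 arrays (horizontal axis) is left out. Leaving out control naive replicate 1 gives 12 and 18 for alcohol and isocaloric against control, and leaving out replicate 2 gives 0 and 0.

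Other measures moved with the control diet too. With the actin 3' to 5' ratio as a covariate, 1 member passed for alcohol, Psma4 (-0.52, adjusted p = 0.0284), and 0 for the isocaloric diet, beside 3.31% and 0.399% of all probe sets. At an unadjusted p under 0.05 there were 7 members (16.7%) and 11 (26.2%) in that fit, beside 21.3% and 14.7% of all probe sets. Of the endothelial and mural markers all 5 that were tested, of 8 on the array, were higher in both diets than in control, and the summed intensity of the 8 was 885 to 1064 with alcohol, 875 to 1025 with the isocaloric diet and 546 to 608 in control. Of 9 microglial markers tested, of 12 on the array, 1 was lower with alcohol (Cd53) and 1 with the isocaloric diet (C1qa), and the summed intensity was 1293 to 1487, 1178 to 1309 and 1332 to 1852. Hbb, a haemoglobin gene and the 1 blood marker tested, was lower in both diets (-0.56 with alcohol and -0.50 with the isocaloric diet). With alcohol the neuronal marker Nrgn (0.35), 1 of 5, and the principal cell marker Hpca (0.56), 1 of 4, were higher, and Aqp4 of the astrocytes (-0.28), 1 of 8, and Cldn11 of the oligodendrocytes (-0.29), 1 of 6, were lower. With the isocaloric diet the astrocyte marker Slc1a3 (-0.36) was lower. In all, 11 of 43 markers tested passed with alcohol and 8 with the isocaloric diet. The part of these cells in the proteasome differences was not tested. Centring arrays on their median moved the median of all probe sets in the isocaloric comparison from 0.02 to -0.09, and 14 members were then lower, while the split over all probe sets went from 404 higher and 267 lower to 232 and 984.

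The inducible genes were Psmb8, Psmb9 and Psmb10, which replace Psmb5, Psmb6 and Psmb7 in the immunoproteasome, and Psme1 and Psme2, which form the activator PA28. Psmb10 passed only as lower in the isocaloric diet than in control. It was at 7.04, 6.97, 7.17 and 7.25 in alcohol trained, 7.28, 7.27, 7.05 and 7.16 in alcohol naive and 7.45, 6.99, 6.89 and 6.98 in isocaloric trained samples. The isocaloric naive arrays were at 6.70 and 6.71, the control trained arrays at 7.27 and 7.15 and the control naive arrays at 7.23 and 7.59. The 2 isocaloric naive arrays were the lowest of all 18, and isocaloric trained replicate 1 lay among the controls. In naive samples alcohol stood 0.49 above isocaloric (SE 0.146, adjusted p = 0.204). Without control naive replicate 2 the isocaloric difference from control was -0.33 (adjusted p = 0.22).

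Psmb5 was at 9.998, 10.13, 10.14 and 10.02 in alcohol trained, 10.04, 9.95, 9.99 and 9.93 in alcohol naive, 9.89, 10.02, 9.96 and 9.84 in isocaloric trained and 9.80 and 9.68 in isocaloric naive samples. The control trained arrays were at 9.98 and 10.01 and the control naive arrays at 10.1 and 10.3. The isocaloric naive arrays were again lowest, and without control naive replicate 2 the isocaloric difference from control was -0.21 (adjusted p = 0.113).

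Psmb7, the trypsin-like subunit, was at 9.997, 9.97, 10.08 and 10.04 in alcohol trained, 10.14, 10.09, 10.15 and 10.03 in alcohol naive, 9.97, 10.01, 9.94 and 10.02 in isocaloric trained, 9.85 and 9.91 in isocaloric naive, 9.91 and 9.98 in control trained and 10.05 and 10.44 in control naive samples. It did not pass in any comparison, at 0.13 for alcohol against isocaloric (adjusted p = 0.200) and -0.16 for isocaloric against control (0.142).

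Psmb8 was at 5.63, 6.05, 6.003 and 6.05 in alcohol trained, 6.04, 5.61, 6.01 and 5.68 in alcohol naive, 5.80, 5.79, 5.96 and 5.96 in isocaloric trained, 5.68 and 6.07 in isocaloric naive, 5.93 and 5.96 in control trained and 6.10 and 5.94 in control naive samples. All groups overlapped, and the 3 averaged diet differences were 0.01 (a sign that turned in 10 of 32 alternatives), -0.10 and -0.10, with adjusted p of 0.985, 0.604 and 0.673. Psmb9, under the filter and not tested, was at 5.11, 5.47, 5.49 and 4.31 in alcohol trained, 5.67, 5.71, 5.65 and 5.11 in alcohol naive, 4.55, 5.22, 5.68 and 4.92 in isocaloric trained, 5.47 and 4.94 in isocaloric naive, 5.66 and 5.11 in control trained and 5.27 and 5.39 in control naive samples. Its values were low and wide in every group.

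Psme1 was at 7.48, 7.44, 7.67 and 8.43 in alcohol trained, 7.58, 7.56, 7.49 and 7.92 in alcohol naive, 7.50, 7.64, 8.04 and 7.72 in isocaloric trained, 7.70 and 7.47 in isocaloric naive, 8.01 and 7.81 in control trained and 7.79 and 8.12 in control naive samples. Psme2 was at 7.23, 7.38, 7.49 and 7.75 in alcohol trained, 7.40, 7.24, 7.27 and 7.24 in alcohol naive, 7.30, 7.22, 7.23 and 7.24 in isocaloric trained, 6.92 and 7.14 in isocaloric naive, 7.16 and 7.15 in control trained and 7.14 and 7.44 in control naive samples. Both were highest on alcohol trained replicate 4, one of the arrays high in Ttr. Neither passed: Psme1 was at -0.24 for alcohol (adjusted p = 0.290) and -0.28 for the isocaloric diet (0.305) against control, and Psme2 at 0.15 (0.245) and -0.08 (0.644). Of 26 listed interferon and antigen presentation genes 21 were on the array and 11 were tested, and 0 of them passed in limma in any of the 4 averaged comparisons, with at most 1 per comparison at an unadjusted p under 0.05.

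**Figure D5:**
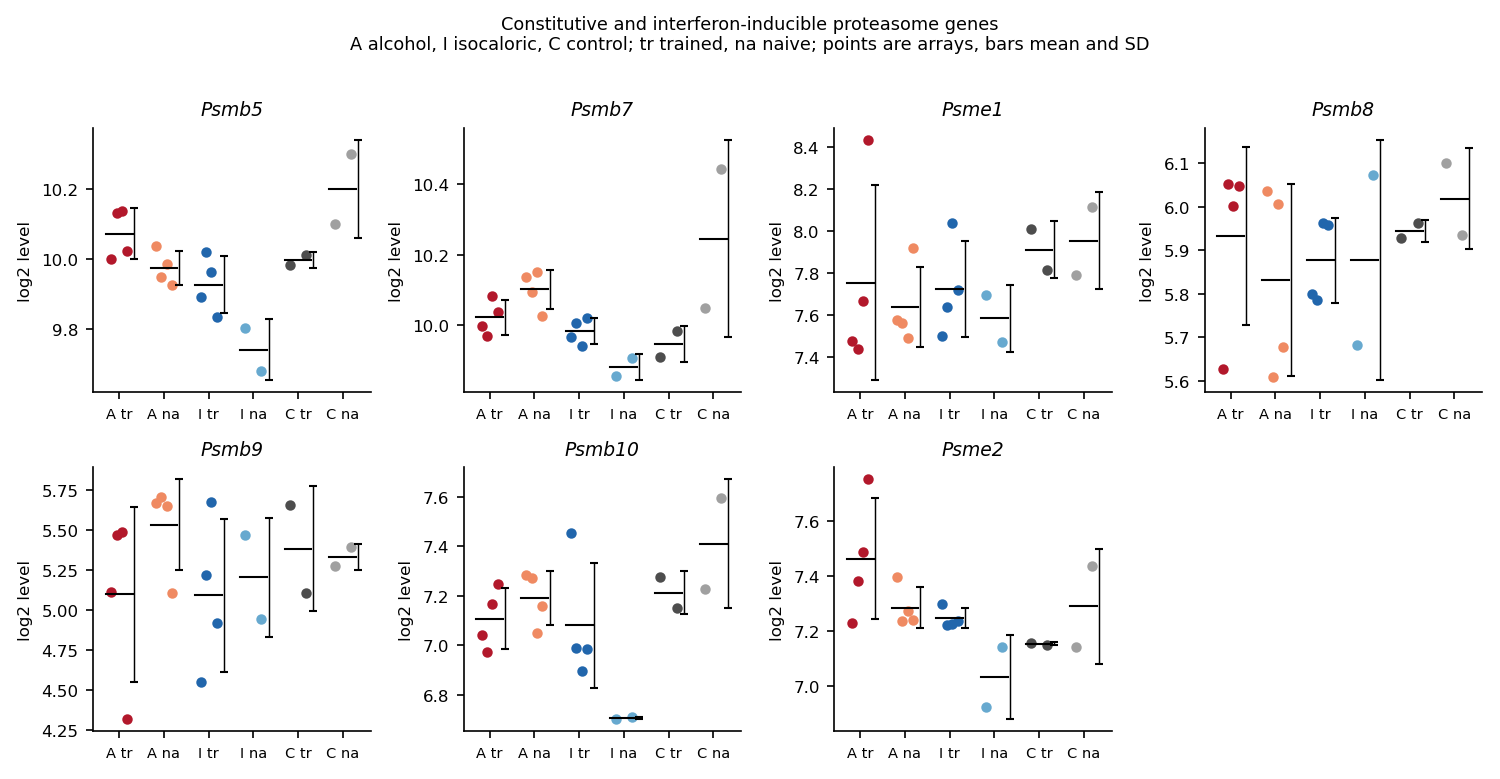
Log2 level on each array (points) of the catalytic subunits Psmb5 and Psmb7, the inducible subunits Psmb8, Psmb9 and Psmb10 and the PA28 genes Psme1 and Psme2, by the 6 groups, with the group mean as a line and the SD as a bar (n = 4 or 2). Psmb10 is lowest in the isocaloric naive group, at 6.70 and 6.71, and Psmb8 overlaps in every group.

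In the cap, 9 genes besides the ATPases were measured. In the averaged comparisons Psmd11 was the only one of the 14 cap genes called higher, and Psmc2 the only one called lower. Psmd4, a ubiquitin receptor, was at 0.20 for alcohol against the control diet and did not pass (adjusted p = 0.0702), and nor did Psmd3 at 0.16 (0.153). Against the isocaloric diet they were at 0.14 (0.238) and 0.16 (0.197). The cap ATPases Psmc4 and Psmc5 were at 0.17 (0.250) and 0.13 (0.360) against the isocaloric diet.

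Among the activators, the inhibitor and the chaperones, 0 of 11 genes passed in limma in any of the 4 averaged comparisons, and at an unadjusted p under 0.05 there were 1 for alcohol against isocaloric, 1 for alcohol against control, 3 for isocaloric against control and 1 for training. The shares of all probe sets under that limit were 21.7%, 33.6%, 25.1% and 5.95%. The inhibitor Psmf1 was at 0.20 with alcohol against control (adjusted p = 0.186). Psmg4 was at -0.23 (0.101) with alcohol and -0.28 (0.102) with the isocaloric diet against control. The 3 probe sets of Psme4 gave 0.21, 0.50 and 0.10 for isocaloric against control, none of which passed.

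Training was compared over all 3 diets and within each. Averaged over diets, 0 of 42 members passed in limma, against 0.0105% of all probe sets, and 2 had an unadjusted p under 0.05, against 5.95% of all. The median difference was -0.01 for the members and -0.00 for all probe sets. The smallest p belonged to Psmd9, a chaperone of cap assembly, which was at -0.25 (SE 0.074, adjusted p = 0.756 in limma). It was at 6.44, 6.47, 6.59 and 6.70 in alcohol trained and 6.71, 6.77, 6.80 and 6.70 in alcohol naive samples. In isocaloric trained samples it was at 6.46, 6.19, 6.46 and 6.44, and in isocaloric naive samples at 6.72 and 6.43. The control trained arrays gave 6.35 and 6.60 and the control naive arrays 6.85 and 6.84. The control groups did not overlap. In alcohol samples the ranges met at 6.70, and in isocaloric samples 3 of the 4 trained arrays lay within the naive range. Psmg4 (-0.16) and Psma4 (-0.14) were the next most negative, and Psma1 (0.16), Psmd5 (0.11) and Psme2 (0.08) the most positive. None passed.

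Within diets, too, training called 0 members in limma. In alcohol samples 0% of all probe sets passed, and 6 members had an unadjusted p under 0.05 (8.59% of all probe sets), with Psma3 at -0.29 and Psmd1 at 0.29. In isocaloric samples 0% of all passed and 7 members were under the unadjusted limit (7.12%), with Psmd10 at -0.38 and Psmb10 at 0.38. In control samples 0.0315% of all passed and 8 members were under it (10.9%), with Psma1 at 0.55 (adjusted p = 0.194) and Psmg4 at -0.47 (0.262). Leaving out control naive replicate 1 gave 9 members lower in trained than in naive control samples, among them Psmb4 at -0.71, beside 3.04% of all probe sets that passed and were lower. The 1 naive control array then left is replicate 2, the one that stood apart. Leaving out replicate 2 gave 1 member, higher, beside 0.326% of all probe sets passing.

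Alcohol was also set against isocaloric within each training state. In naive samples 0 members passed against 0.0735% of all probe sets, and 8 were under the unadjusted limit, against 12.4%. Beside Psma1 at -0.62, the most negative difference there was that of Psmd10 (-0.28), and the largest positive ones were those of Psmb10 (0.49), Psma7 (0.29) and Psmc4 (0.27). In trained samples 0 passed, against 0.399%, and 5 were under the limit, against 14.7%, with Psme3ip1 at -0.31, Psmd1 at 0.29 and Psmd4 at 0.23. The test of the difference between these 2 effects called 0 members and 0% of all probe sets, with 3 members under the unadjusted limit against 4.21%. These 3 were Psme3ip1 (-0.53), Psma1 (0.51) and Psmb10 (-0.46).

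The members were also compared by how they varied within groups, as the correlation of their deviations from the group means. Over the 18 arrays the median pairwise r was 0.49 among the 13 core genes, 0.51 in the beta ring and 0.37 in the alpha ring, against 0.12 over all 42 members and 0.00 over all probe sets. Over the 14 alcohol and isocaloric arrays, without the control arrays, it was -0.00 among the core genes, 0.01 in the beta ring and -0.04 in the alpha ring. In a group of 2 arrays the deviations from the group mean are equal and opposite, so both control naive arrays weigh alike here. Which of the control arrays the difference in r came from was not tested. The correlations are descriptions over arrays that share a scaling. In the 14 arrays the cap genes other than ATPases had the highest median of the 6 roles with at least 3 tested genes, at 0.14. Psme2 had the highest median correlation with the core genes, at 0.40, and Psma4 the lowest with the other core genes, at -0.26.

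Of 34 listed genes of the ubiquitin and proteasome pathway outside the members, 24 were on the array and all 24 were tested. Against the isocaloric diet, alcohol called 0 higher and 1 lower, Txnl1, a thioredoxin-like protein bound to the proteasome cap (-0.37, adjusted p = 0.0053). Against control, alcohol called 5 higher and 3 lower, beside 1075 higher and 820 lower among all probe sets, or 19.9% in all. Higher were the ubiquitin ligase Ubr4 (0.72, 0.0033), Akirin2, which brings proteasomes into the nucleus (0.53, 0.0012), Nfe2l1, the transcription factor of proteasome genes (0.28, 0.0173), the autophagy receptor Sqstm1 (0.22, 0.0398) and the ligase Ube3c (0.18, 0.0452). Lower were Txnl1 (-0.31, 0.0047), the shuttle factor Rad23b (-0.28, 0.0075) and Pomp, the maturation factor of the core (-0.24, 0.0308). The isocaloric diet called 0 higher and 1 lower against control, Pomp at -0.35 (0.0165). A fit without control naive replicate 2 left replicate 1 alone in that group, with the spread of the others. For this reason only effect sizes are given here, and no comparison with the members' calls in that fit can be drawn. Alcohol against control was then at 0.40 for Ubr4, 0.46 for Akirin2, 0.34 for Nfe2l1, -0.31 for Txnl1 and -0.27 for Rad23b. Sqstm1 was at 0.16, Ube3c at 0.20 and Pomp at -0.12. With the isocaloric diet Pomp was at -0.23 against control. Training called 0 of the 24 in limma, with 1 at an unadjusted p under 0.05.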

How the data were processed

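Rat hippocampal RNA was measured on 18 arrays, grouped by the diet and training state in the labels. The authors deposited 1 intensity per probe set on a linear scale. The submitters' processing notes name MAS5 for 2 arrays, and no algorithm is given for the other 16 in the sources used here. The 2 with MAS5 named, control naive replicate 1 and control trained replicate 2, are those written with fewer digits. Whether their processing differed is not stated. The mean after trimming 2% at each end was 150.03 on every array, so a change of total RNA cannot be seen. Of 15923 probe sets, 57 controls and those with a mean under the 40th percentile were left out. The 9520 others entered limma 3.58.1 under R 4.3.3 (lmFit on 6 group means, eBayes with a trend, two-sided, Benjamini-Hochberg over all tested) on log2(value + 6.06), where 6.06 is the 10th percentile over all arrays. This constant understates differences of dim probe sets. The script was tested on simulated data. Tables used Python 3.11.15, pandas 2.3.3 and numpy 2.4.6, plots matplotlib 3.10.9.

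Values on every array are given for members that passed an averaged comparison, for the member with the smallest p of each, and for Psmb5, Psmb7 to Psmb10, Psme1 and Psme2. The others are given by counts, ranges and the 3 largest differences each way. Members and lists were chosen with earlier results of these data known. All 43 symbols matched a RefSeq gene table by gene ID. Promoter windows come from RefSeq's GRCr8 table, and the windows of Psma7 and Psmd6 were not used here. Replicate numbers did not pair the samples, so the blocked fit is an alternative. Alternatives changed the constant, scaling, filter, model, covariates and the arrays included.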

Additional observations from a re-analysis of the deposited data

Results flagged for a closer look

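In the 3 groups of 4 arrays, 8 of 129 gene and group sets held 1 array that lay far from the other 3, with a gap over the range above 0.829. Chance alone gives such a gap in about 1 set in 20. Psmc2 was low on alcohol naive replicate 1 (9.42, the others from 9.55 to 9.57), Psmc4 on isocaloric trained replicate 2 (8.44, the others from 8.995 to 9.05) and Psmd1 on isocaloric trained replicate 4 (6.83, the others from 7.48 to 7.52). Among the inducible genes, Psmb10 was high on isocaloric trained replicate 1 (7.45, the others from 6.89 to 6.99), Psmb8 low on alcohol trained replicate 1 (5.63, the others from 6.003 to 6.05) and Psmb9 low on alcohol naive replicate 4 (5.11, the others from 5.65 to 5.71). Of the chaperones, Psmd10 was low on alcohol trained replicate 2 (7.31, the others from 7.66 to 7.70) and Psmd9 on isocaloric trained replicate 2 (6.19, the others from 6.44 to 6.46). Groups of 2 arrays, to which control naive replicate 2 belongs, were not tested in this way.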

How the results depend on the processing

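Counts of members that passed are given for alcohol against control, isocaloric against control and alcohol against isocaloric, in this order. They were 5, 5 and 1 as reported, beside 19.9%, 7.05% and 3.06% of all probe sets. With the actin ratio as a covariate these shares were 3.31%, 0.399% and 3.51%, and with the Gapdh ratio 20.3%, 6.69% and 0.263%. A change in a member count thus need not be particular to the members. Where the share of all probe sets is not given, a member count cannot be read as particular to them. Median centring gave 4, 14 and 4, quantile normalisation 5, 3 and 1, no filter 3, 2 and 1, the stricter filter 5, 6 and 2, no trend 4, 3 and 1, only the groups compared 2, 0 and 3, and array weights 4, 4 and 7. The actin ratio as a covariate gave 1, 0 and 1, the Gapdh ratio 5, 4 and 0, and the hexokinase ratio 3, 5 and 1. Without the 2 arrays written with fewer digits, which leaves each control group with 1 array assumed to vary like the others, they were 9, 12 and 3, and without the 4 arrays high in Ttr 2, 0 and 0. The replicate block, with numbers that did not pair the samples (r from -0.23 to 0.13 over 36 pairs), gave 3, 1 and 1. Leaving out 1 array gave 0 to 12, 0 to 18 and 0 to 3, for training 0 to 1, within control samples 0 to 9, and for alcohol against isocaloric in naive samples 0 to 1. That naive comparison gave 1 with quantile normalisation, with only the groups compared and without the 2 arrays, and 5 with array weights. Training in control samples gave 9 without the 2 arrays. The difference of Psmb8 between alcohol and isocaloric was negative with the replicate block (-0.0258) and with the hexokinase ratio (-0.0319), and ran from -0.0924 to 0.103 without single arrays. Calls for alcohol against control were lost in 3 (Psma1), 1 (Psma4), 8 (Psmb4), 9 (Psmc2) and 17 (Psmd11) of 33 alternatives. Those for isocaloric against control were lost in 9 (Psma4), 15 (Psmb10), 17 (Psmb4), 8 (Psmb5) and 22 (Psmc2). Of the called differences 0 changed sign. The causes were not tested. The number of arrays, 2 in 3 of the groups, limits the precision.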
